A study of Mus musculus with 2 samples.

Results

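The regions described here are 300 H3K27ac peaks that were called in both Gata2 f/f and Gata2 KO leukaemia cells of the mouse and that were narrower in KO by the greatest number of base pairs. They were taken from 27789 pairs on chromosomes 1 to 19 in which 1 f/f peak overlapped exactly 1 KO peak and the reverse, so that they make up 1.08% of all pairs. They were chosen by their measured f/f minus KO width. The widths of these 300 regions in both libraries are therefore a description of how they were chosen, and no test is attached to them.

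Acetylation of histone H3 at lysine 27 (H3K27ac) marks active promoters and enhancers. Acetylated regions can reach well beyond a gene start, and wide stretches over several neighbouring elements are known at genes that define a cell's identity. GATA2 is a zinc finger transcription factor of blood stem and progenitor cells that binds enhancers together with ETS, RUNX and TAL1 complex proteins. MA9 names a myeloid leukaemia made with the fusion protein MLL-AF9, which keeps Hoxa genes and their partners active.

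Both groups are MA9 leukaemia cells from bone marrow, 1 library each, and the series title names drug resistance of acute myeloid leukaemia as its subject. One group has the genotype Gata2 f/f, with floxed alleles, and the other Gata2 -/- (Gata2 KO). The labels say that cells from primary animals received Cre or the vector MIT as a control, that they were sorted for GFP and tdTomato, and that chromatin was taken after 7 to 9 days of culture with IL-3, IL-6 (10 ng/mL) and SCF (20 ng/mL). They do not give the number, age or sex of the animals. With 1 library per genotype no difference below has a replicate check, and each describes these 2 libraries only.

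There were 33556 f/f peaks and 36553 KO peaks on chromosomes 1 to 19, of which 82.8% and 76.0% entered the pairs. Read depth is not known, and in bulk chromatin fewer cells with a mark and less of it per cell cannot be told apart. Of defining genes checked, Kit, Spi1, Cebpa, Elane, Itgam and the erythroid gene Klf1 had a peak within 1 kb of a gene end in both lists, Mpo, Meis1, Hoxa9 and Cd34 in f/f alone, and Cd3e, Cdh5 and Col1a1 in neither. Of whole lists, such a peak was found in f/f and KO at 16 and 22 of 27 neutrophil genes, 19 and 21 of 24 monocyte genes, 22 and 17 of 26 Hoxa and MLL-fusion targets, 6 and 6 of 18 erythroid genes, 8 and 6 of 24 lymphoid genes and 2 and 2 of 18 stromal genes. Of all 20665 protein-coding genes, 10726 had such a peak in f/f and 10708 in KO. The part of differences between the libraries at these lists in the widths was not tested. Acetylation peaks do not check the Gata2 deletion. The lists also differed in how finely peaks could be resolved. The narrowest f/f peak was 424 bp wide and the narrowest KO peak 374 bp, and no peaks of 1 list lay closer together than 1697 bp in f/f against 1498 bp in KO. In both lists the smallest gap was about 4 times the smallest width. Every one of the 300 width differences was larger than the smallest f/f gap. This follows from the choice, whose limit was 1782 bp, and is no check on the resolution of the lists. With KO peaks closer than 1697 bp joined, 298 of the 300 regions were again among the 300 most narrowed, and with KO peaks under 424 bp left out, 283 were.

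Of the 25 most narrowed regions, 5 had annotated gene starts under the f/f peak, and 4 stretches of promoter sequence are shown because they stand for the 2 outcomes: at Etv6, Zfp91 and Bid the start stayed under the narrower KO peak, and at Fam78a, whose starts there lie inside the longer gene model, it did not. Each is the 250 bases before the start, 5′ to 3′ on the gene's strand, from RefSeq's GRCm38.p6 table (the same build as mm10). Capitals mark matches on either strand to a short list of motifs. The GATA motif was searched as AGATAA, which is its common form, and likewise with the first base changed, as TGATAA, and with the last base changed, as AGATAG, or with both changed, as TGATAG. The motif of RUNX factors was searched as TGTGGT and that of the ETS family as CCGGAAG. For C/EBP factors the letters searched were TTGCGCAA, whereas for the AP-1 complex they were TGANTCA. The E-boxes searched were CACGTG, which MYC family proteins bind, and the form CAGCTG. The GATA forms can overlap each other, and the E-boxes and the C/EBP motif read the same on both strands.
Etv6, chr6:134035450-134035699, plus strand: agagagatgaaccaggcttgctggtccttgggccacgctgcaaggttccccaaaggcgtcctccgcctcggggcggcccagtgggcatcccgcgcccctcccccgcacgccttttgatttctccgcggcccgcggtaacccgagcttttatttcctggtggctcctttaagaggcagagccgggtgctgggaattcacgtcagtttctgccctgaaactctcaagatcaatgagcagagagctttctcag
Zfp91, chr19:12796124-12796373, minus strand: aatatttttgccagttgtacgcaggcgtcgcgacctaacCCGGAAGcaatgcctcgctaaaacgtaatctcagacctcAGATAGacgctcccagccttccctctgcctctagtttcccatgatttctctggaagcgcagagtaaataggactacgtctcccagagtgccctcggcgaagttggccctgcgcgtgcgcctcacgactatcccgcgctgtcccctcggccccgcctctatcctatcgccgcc
Bid, chr6:120916825-120917074, minus strand: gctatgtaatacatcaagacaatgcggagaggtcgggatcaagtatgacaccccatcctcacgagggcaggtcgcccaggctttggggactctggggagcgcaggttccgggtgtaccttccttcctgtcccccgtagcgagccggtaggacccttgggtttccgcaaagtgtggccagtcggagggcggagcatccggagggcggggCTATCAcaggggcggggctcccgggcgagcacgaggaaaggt
Fam78a, chr2:32064912-32065161, minus strand: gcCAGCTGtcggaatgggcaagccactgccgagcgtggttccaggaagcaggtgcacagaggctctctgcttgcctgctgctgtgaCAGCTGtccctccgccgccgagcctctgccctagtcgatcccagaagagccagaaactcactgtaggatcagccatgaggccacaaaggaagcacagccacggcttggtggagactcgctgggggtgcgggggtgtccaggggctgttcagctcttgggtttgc
The Etv6 stretch held no match. Zfp91 had 1 ETS and 1 GATA match and Bid 1 GATA match on the opposite strand, and the Fam78a stretch had the E-box CAGCTG at 2 places. A match is a run of letters and not a shown binding site.

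Across all pairs, widths hardly shifted between the libraries. The median width was 1273 bp in f/f against 1281 bp in KO, the median f/f minus KO difference was 12.0 bp and the mean -7.62 bp. Of the 27789 pairs, 14492 were narrower in KO (52.2%, 95% Wilson interval 51.6 to 52.7), 13225 were wider and 72 equal. Intervals here cover counting error only. The 300 regions had a median width of 3230.5 bp (2239 to 11107) in f/f, against 1053.5 bp (374 to 9290) in KO. Their differences ran from 1782 to 4757 bp with a median of 2092 bp. The KO width was at most 0.5 of the f/f width in 254 of them. Over all pairs 4.45% met that limit, and 4.44% had a KO peak at least 2 times as wide as the f/f peak.

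**Figure D1:**
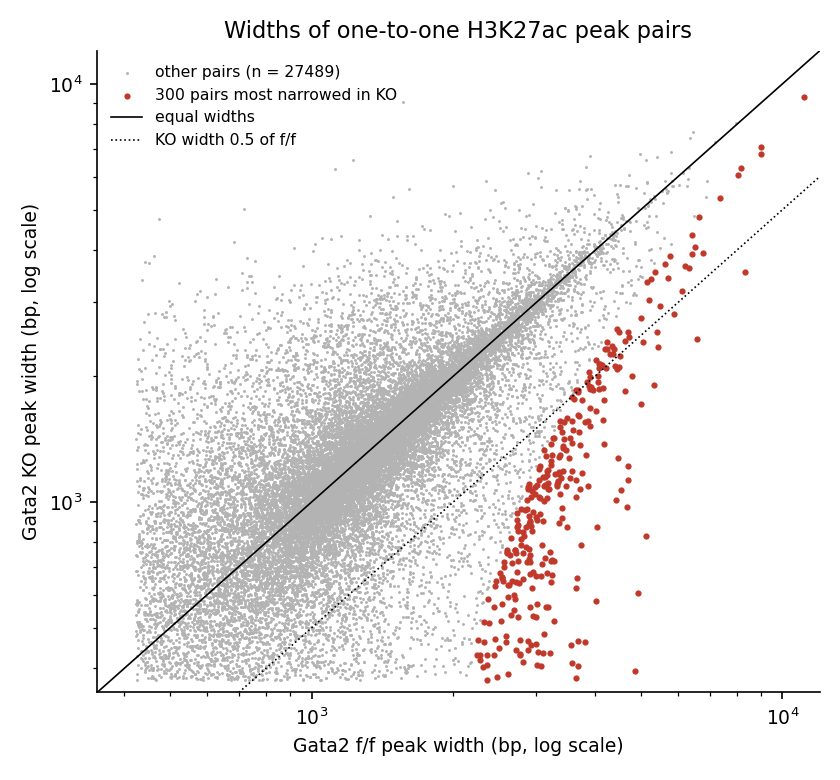
Each point is 1 pair of peaks, with the Gata2 f/f width on the x axis and the Gata2 KO width on the y axis, both in bp on log scales. The 300 regions (red) lie below the line of equal widths because they were chosen there, with f/f widths of 2239 to 11107 bp, and the other pairs (grey) lie on both sides of it.

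Large differences were found in the opposite direction too. The limit of 1782 bp was reached by 300 pairs narrower in KO and by 276 pairs wider in KO. With KO peaks joined across gaps shorter than any in the f/f list, an alternative chosen after seeing the data, it was reached by 302 and 345, so that which direction was more frequent depended on this choice. The 300 most widened pairs had a median difference of 2129.5 bp toward KO, beside 2092 bp for the 300 most narrowed. The 10 largest of each kind had medians of 4121.5 and 3912.5 bp. Summed f/f minus KO width was 673.5 kb over the most narrowed and -683 kb over the most widened.

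**Figure D2:**
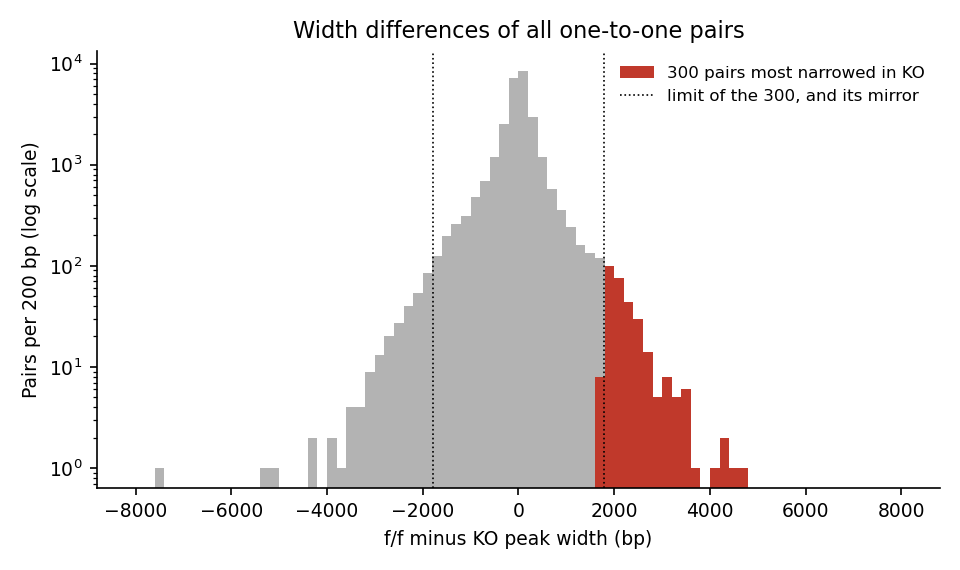
Number of pairs (log scale) by f/f minus KO width in steps of 200 bp. The 300 regions (red) form the right tail beyond 1782 bp, and the left tail beyond the mirrored limit holds 276 pairs.

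How wide the f/f peak was went with the direction of the difference, as did the KO width in the opposite sense. Among the 2956 pairs with an f/f peak of at least 2239 bp, the narrowest f/f width of the 300, 64.6% were narrower in KO (62.9 to 66.4) and the median difference was 117 bp. Among the 3196 pairs whose KO peak reached that width, 70.1% were wider in KO (68.5 to 71.7) and the median was -198 bp. Ranking on f/f width or on KO width thus gave opposite pictures of the same pairs. Just inside the limit lay pairs at Klhl1 (2728 bp in f/f against 943 bp in KO), Iqgap2 (3114 and 1331 bp) and 4931414P19Rik (2368 and 586 bp). Just outside lay pairs at Nabp1 (2625 and 846 bp), Pitpna (2243 and 465 bp) and Id2 (3263 and 1488 bp).

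In these regions width was mostly lost from 1 end. In 269 of the 300 regions at least 80% of the f/f bases without a KO peak lay on 1 side of the KO peak, on the lower-coordinate side in 123 and on the upper in 146. In 31 regions the loss was spread over both sides. The KO peak lay wholly inside the f/f peak in 184 regions, and it reached more than 200 bp beyond it in 18. Loss on 1 side and position inside the f/f peak were not counted over all pairs. Neither is therefore shown to be particular to the set. The remaining KO peak was under 500 bp wide in 38 regions (12.7%), beside 4.21% of all pairs. By the pairing rule no other KO peak could overlap the f/f peak, and the next one lay a median of 7.44 kb from it.

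**Figure D3:**
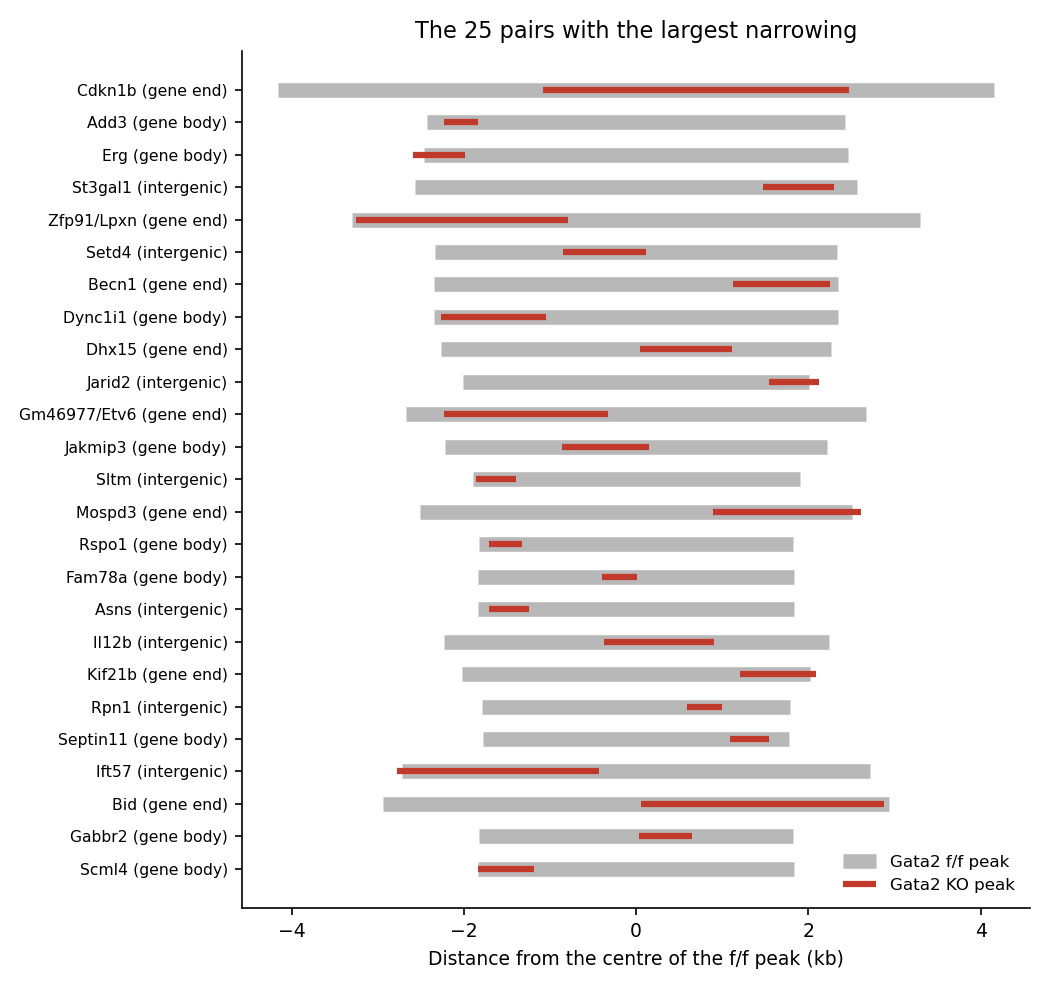
The 25 regions with the largest difference, each drawn as the f/f peak (grey) and the KO peak (red) by distance in kb from the centre of the f/f peak, and labelled by the gene at the peak or nearest to it. At Cdkn1b the KO peak sat inside the f/f peak, whereas at Add3, Erg and Sltm a short KO peak lay at 1 end.

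The 25 most narrowed regions had f/f widths of 3562 to 8311 bp and KO widths of 379 to 3554 bp. Of these, 8 lay within 1 kb of a gene end, 9 inside a gene and 8 between genes. Their leader lay at Cdkn1b, which encodes the cyclin-dependent kinase inhibitor p27 (chromosome 6, 134923662 to 134931972, mm10). The peak was 8311 bp wide in f/f against 3554 bp in KO. It covered the downstream end of the gene and the sequence after it, and lost 3079 bp on the gene's side and 1678 bp on the far side. The other pair at Cdkn1b, over the gene start, was about equal at 1921 bp in f/f against 1982 bp in KO, so that the narrowing there was limited to the downstream peak.

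Wide peaks over gene starts that shrank toward the start included the shared promoter of Zfp91, a zinc finger gene, and Lpxn, the leukocyte adaptor protein leupaxin. That peak was 6588 bp wide in f/f against 2456 bp in KO (chromosome 19, 12794584 to 12801171). Both starts stayed covered, and 4089 bp were lost on the side of the Lpxn gene. Becn1, an autophagy gene, had 4690 bp in f/f against 1127 bp in KO at a gene end (chromosome 11, 101297858 to 101302547). It had a -log10 p of 159.5 in f/f and 97.9 in KO (the authors' values, which rank peaks within a list only). Bid, a pro-apoptotic BCL2 family gene, had 5870 and 2822 bp (chromosome 6, 120911336 to 120917205), with 2988 bp lost on the side of the gene body and 60 bp upstream. Mospd3 (5010 and 1713 bp) showed the same side, with 3400 bp lost over the gene. Of the 3 pairs at Bid, the one above included, 1 was narrower and 2 were wider in KO, with a median difference of -353 bp. At Kif21b, a kinesin gene (4042 and 873 bp), and Dhx15, a splicing helicase gene (4528 and 1070 bp), peaks at a gene end were also reduced to about 1 kb. No annotated start of those used here lay under the f/f peaks at Becn1, Kif21b and Dhx15. These are peaks at a gene end and are not shown to lie over a start.

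Inside genes, the shortest remnant relative to the f/f peak was found at Add3, which encodes an adducin of the membrane skeleton (chromosome 19, 53183385 to 53188244). Its f/f peak was 4860 bp wide and its KO peak 394 bp, or 8.11% of it. The Wnt agonist gene Rspo1 (3646 and 379 bp) and Fam78a (3669 and 405 bp) kept 10.4% and 11.0%. Dync1i1 (4688 and 1219 bp), Jakmip3 (4435 and 1013 bp), Gabbr2 (3647 and 622 bp) and Scml4 (3660 and 659 bp) were the other regions of the 25 inside genes, beside Erg and Septin11 described elsewhere. The f/f calls were often weak: the -log10 p was 3.76 at Jakmip3 and 7.72 at Dync1i1, below the f/f list's median of 12.1. In all, 15 of the 25 f/f peaks lay below that median.

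Between genes, the widest loss lay 233.0 kb from St3gal1, a sialyltransferase gene (5138 bp in f/f against 827 bp in KO). A region 365.5 kb from the nearest gene end, that of Setd4, had 4667 and 974 bp. Regions 146.1 kb from Jarid2, a Polycomb cofactor gene (4018 and 580 bp), 5.58 kb from the asparagine synthetase gene Asns (3677 and 465 bp) and 17.3 kb from Il12b, a cytokine subunit gene (4472 and 1274 bp), were also among the 25. Sltm (3799 and 462 bp, 8.15 kb away) and Ift57 (5441 and 2352 bp, 25.6 kb away) complete this kind with the region upstream of Gata2. Most of these f/f calls were weak too, with a -log10 p of 4.74 near St3gal1 and 4.24 near Il12b. Only the regions near Setd4 (13.6) and upstream of Gata2 (16.3) lay above the f/f list's median of 12.1. Near St3gal1 the KO value was 11.5, above the KO list's median of 9.36.

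The Gata2 locus held 1 of the 25. This region lay on chromosome 6 at 88120993 to 88124562, with its first base 72.9 kb before the start of Gata2, on the side where the known distal enhancer of the gene lies, although the gene end nearest to it was that of Rpn1 at 15.7 kb. It was 3570 bp wide in f/f against 412 bp in KO, with a -log10 p of 16.3 and 4.73. The next pair, which began at -78.1 kb, was 2778 bp wide in f/f against 1301 bp in KO and was not among the 300. The position of the enhancer itself was not read here, so neither pair is shown to cover it. Within 150 kb of the gene 14 of 18 pairs, the region among the 300 included, were narrower, with a median difference of 228.5 bp, beside 12.0 bp over all pairs.

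Other regions lay at genes of factors that work with GATA2. Inside Erg, an ETS factor of stem cells, a peak at chromosome 16, 95436941 to 95441863 was 4923 bp wide in f/f against 604 bp in KO. Its KO remnant lay at the lower-coordinate end, and 4449 bp of the f/f peak had none. The 13 pairs at Erg, this one included, went both ways, with 8 narrower in KO and a median difference of 58.0 bp, and 1 pair was wider in KO by 1279 bp (1798 and 3077 bp). At the start of Etv6, an ETS repressor, the f/f peak of 5344 bp (chromosome 6, 134034292 to 134039635) was matched by a KO peak of 1908 bp. The start whose promoter is printed above stayed covered, and 2994 bp were lost on the side of the gene. Of the 19 pairs at Etv6, this one included, 12 were wider in KO and the median difference was -56.0 bp. The peak over Lyl1, a TAL1 relative, with its neighbours Trmt1 and Nfix was the widest f/f peak of all pairs, at 11107 bp, and 9290 bp wide in KO. Of the 3 pairs at Lyl1, this one included, 2 were narrower and 1 was wider in KO (1787 and 3378 bp). Chosen after its values were seen, Cbfa2t3, a corepressor of the TAL1 complex, had 6508 bp in f/f against 4070 bp in KO.

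**Figure D4:**
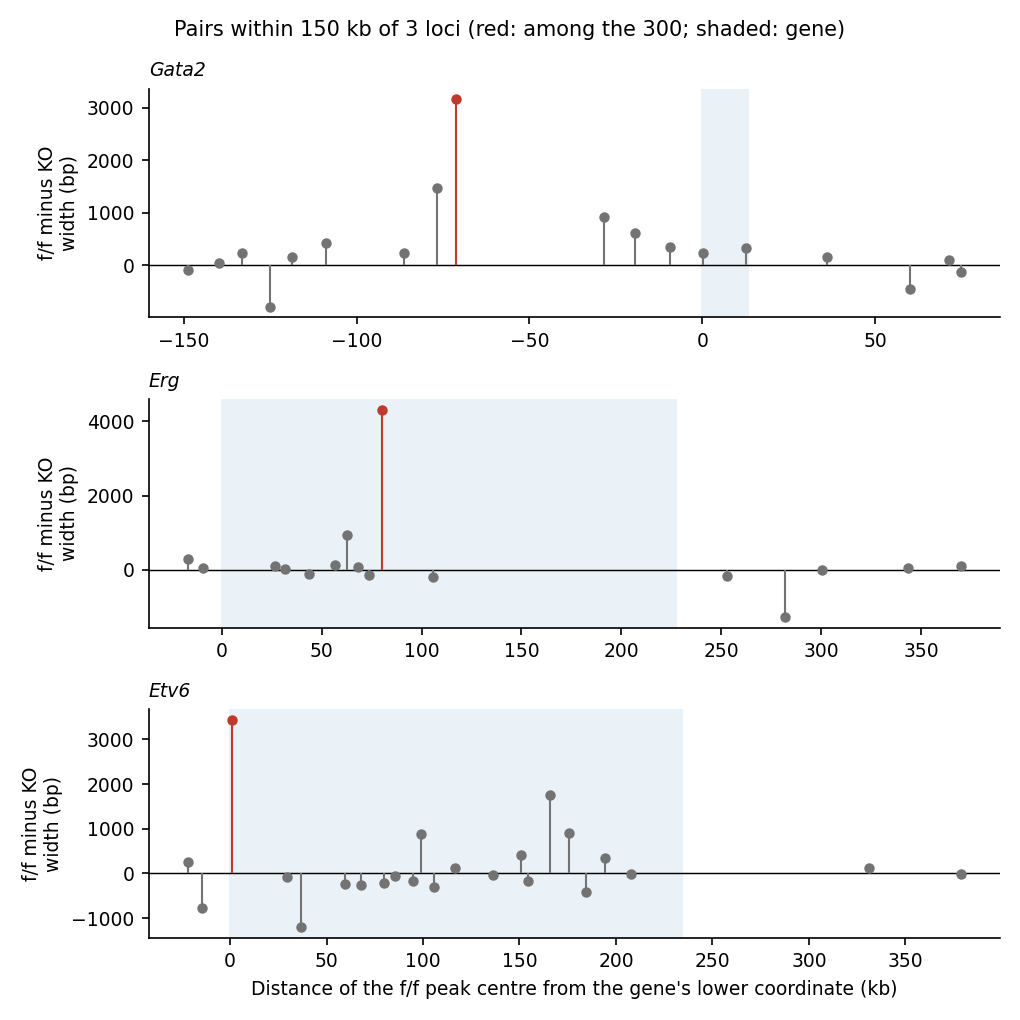
Difference in width (f/f minus KO, bp) of every pair within 150 kb of Gata2, Erg and Etv6, by distance of the f/f peak's centre from the gene's lower coordinate in kb, with the gene shaded and members of the 300 in red. Pairs around Gata2 lie mostly above 0 (14 of 18), and those around Etv6 mostly below (14 of 23).

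Among MLL-fusion targets, Hoxa9, the central homeobox gene of this leukaemia, had a peak across its body (chromosome 6, 52223724 to 52226936) that was 3213 bp wide in f/f against 759 bp in KO. It was trimmed at both ends, by 1573 and 881 bp, and this KO peak no longer came within 1 kb of either gene end. Mecom, which encodes EVI1, had a region inside the gene (3138 and 1096 bp). Rbpms, on the stem cell list with Mecom, had 2897 and 1102 bp. Mitf, a factor of mast cells, had 2770 and 433 bp inside the gene.

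Genes of cell cycle, cell death and drug handling were also found at the 300 regions. The survival gene Mcl1 had a peak of 3874 bp in f/f against 1890 bp in KO, its start being covered in both, with a -log10 p of 229.9 and 96.7. Of the 4 pairs at Mcl1, this one included, 2 were narrower and 2 wider in KO. One of the wider pairs had 2508 bp in f/f against 4508 bp in KO. Slc29a1, the nucleoside transporter that takes up cytarabine, had 5211 bp in f/f against 3037 bp in KO at a gene end. The peak at Abca7, an ABC transporter gene, and Arhgap45 had 4077 and 2095 bp. Actb, the beta-actin gene, had 8173 and 6296 bp.

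Signalling and immediate early genes, and a gene of the monocyte list, Ly6c2, were near distal regions of the set. Such regions lay 29.3 kb from Jun, an AP-1 factor (2905 and 672 bp), 11.0 kb from the cytokine feedback gene Socs3 (2895 and 730 bp), 93.2 kb from Egr2 (2374 and 514 bp) and 2.32 kb from Ly6c2 (4507 and 2233 bp). Ifngr1, the interferon gamma receptor gene, had one inside it (2808 and 654 bp). The -log10 p in f/f was 3.69 near Jun, 4.85 near Socs3 and 9.55 in Ifngr1, below the f/f list's median of 12.1. Near Ly6c2 it was 21.3. Counting these regions, 8 of the 14 pairs nearest to Jun and 5 of the 7 nearest to Socs3 were wider in KO.

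Lists of genes, 16 in number, were read for how many members had a region of the set at, in or nearest to them, with 342 of 352 symbols found. Such a region was present for 18 of the 261 listed genes that had any pair (6.90%), beside 2.74% of all protein-coding genes with a pair. Listed genes had more pairs each, 3.60 against 2.38, and of their pairs 1.92% were in the set, beside 1.08% of all. The lists were chosen with earlier results of these data known. These shares were not read among pairs with an f/f peak as wide, so they are a description only. The Hoxa and MLL-fusion list had 2 of 20 genes, the GATA2 partner list 3 of 18, the stem cell list 2 of 13, the cytokine receptor list 2 of 23, the RAS-ERK and immediate early list 2 of 34, the BCL2 list 2 of 17 and the drug list 2 of 22. The monocyte, mast cell, cell cycle and ubiquitously expressed lists had 1 gene each (of 23, 11, 22 and 20), and the neutrophil, erythroid, platelet, lymphoid and stromal lists had none (of 19, 6, 10, 13 and 12).

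Over all their pairs, and not only the most narrowed, the stem cell list had the highest median difference, at 124 bp with 23 of 32 pairs narrower in KO. It was followed by the mast cell list (74.0 bp, 18 of 29), the lymphoid list (70.0 bp, 19 of 29), the GATA2 partner list (67.0 bp, 63 of 116), the platelet list (54.0 bp, 26 of 45) and the Hoxa and MLL-fusion list (53.0 bp, 84 of 143). Negative medians, with more pairs wider in KO than narrower, were found for the erythroid list (-78.5 bp, 3 of only 8 narrower) and the neutrophil list (-60.0 bp, 13 of 33). The monocyte list (-57.0 bp, 34 of 83), the BCL2 list (-46.5 bp, 28 of 72) and the cytokine receptor list (-14.0 bp, 40 of 85) had them too. In the drug list the median was -12.0 bp, but its 62 pairs were split evenly, with 31 narrower and 31 wider. The RAS-ERK list (15.0 bp, 91 of 173), the cell cycle list (15.0 bp, 43 of 85) and the stromal list (12.5 bp, 16 of 30) lay close to all pairs. Ubiquitously expressed genes had 37.0 bp (23 of 35). The median over all pairs was 12.0 bp. These medians describe the lists, and neighbouring members of a list share pairs.

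The 300 regions were spread over the genome much as all pairs were. Within 1 kb of a gene end lay 94 (31.3%, interval 26.3 to 36.8), in gene bodies 120 (40%, 34.6 to 45.6) and between genes 86 (28.7%, 23.8 to 34.0). For all pairs these shares were 33.1%, 39.0% and 27.9%. Pairs with an f/f peak of at least 2239 bp had 38.3%, 37.0% and 24.6%. The share at gene ends depended on how the regions were ranked. It was 16.7% among the 300 pairs of lowest KO to f/f width ratio, of which 142 were the same regions.

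**Figure D5:**
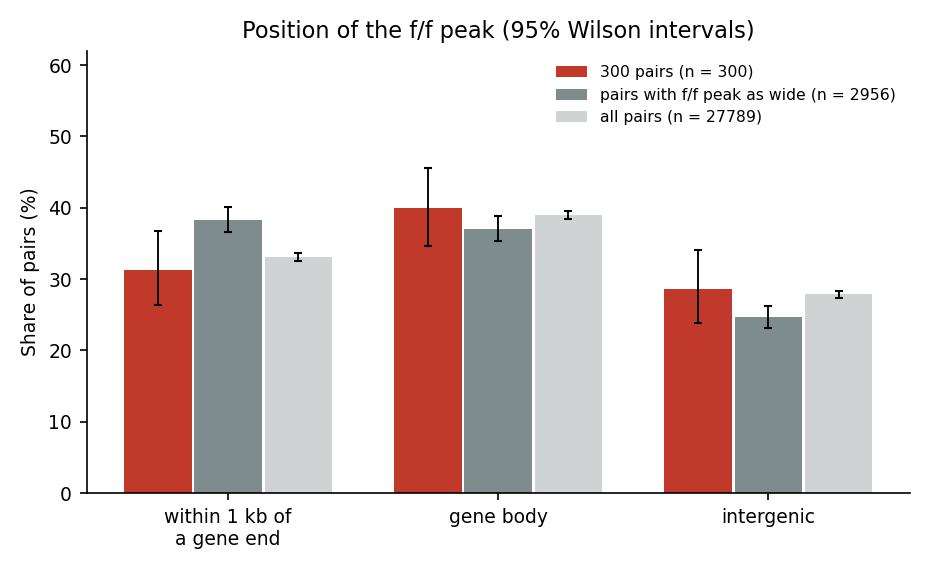
Share of pairs by position of the f/f peak, in percent with 95% Wilson intervals, for the 300 regions, for the 2956 pairs with an f/f peak as wide, and for all 27789 pairs. The intervals of the 300 cover the shares of all pairs in each class, and at gene ends the share of the pairs as wide (38.3%) lies above theirs.

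Gene-end regions were the widest and strongest of the set. Their median widths were 3584.5 bp in f/f against 1320 bp in KO, beside 3119.5 and 869 bp in gene bodies and 3161.5 and 997 bp between genes. Their median -log10 p in f/f was 25.4, beside 7.75 and 7.96. These medians were not read by position over all pairs, so the order is not shown to be particular to the set.

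Annotated starts of protein-coding genes lay under the f/f peak of 63 of the 292 regions on chromosomes for which starts were used. In 22 of these 63 (34.9%, 24.3 to 47.2) at least 1 start was no longer under the KO peak, and in 13 none was left. Over all pairs with a start, 2.55% had lost 1. As a narrower peak can cover fewer starts, this share moves with the width that chose the regions. It was 30.2% (19 of 63) in the other pairs whose KO width was at most 0.5 of f/f. Starts outside the KO peak, picked here after their values were seen, included those of Fam78a, the linker histone gene H1f1, the plakoglobin gene Jup, the fatty acid elongase gene Elovl6 and the myeloid lectin receptor gene Clec12a (2442 bp in f/f against 431 bp in KO). The Elovl6 peak was 2529 bp wide in f/f against 520 bp in KO, with a -log10 p of 105.5 and 4.70. At Fam78a the start shown above lay 1494 bp from the KO peak.

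Where the starts under a peak were all on 1 strand (51 regions), losses were measured from the edges of the KO peak along that strand. They were not measured from the start, so where a start lay outside the KO peak, bases of the gene can count as upstream. At Dcaf11, 1 of the 2 starts lay outside. More bases were lost on the upstream side of the KO peak in 29 and on the gene's side in 22. The upstream side was the more frequent in general. Over all pairs of this kind (6584) the counts were 2978 and 2357, and over those with an f/f peak as wide (765) they were 340 and 298. In the 51 regions the median loss was 1724 bp on the upstream side and 324 bp on the gene's side. The largest losses on the gene's side were at Mospd3, Bid, Zfp74 (2732 bp), Yy1 (2692 bp), a ubiquitous zinc finger factor, and Rasa4 (2559 bp), a RAS GTPase-activating protein. The largest losses on the upstream side were at Rgs2 (2501 bp), a G protein regulator, Zfp273 (2381 bp), Dcaf11 (2333 bp), Helz2 (2300 bp) and Snrnp35 (2286 bp).

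By the authors' values the regions had a lower fold enrichment than all pairs, near that of other wide peaks. Their median fold enrichment in the f/f list was 2.79, beside 3.74 for all pairs and 2.93 for pairs with an f/f peak as wide. The regions' median in the KO list was 2.82, beside 3.35 and 2.74. Their -log10 p in f/f lay below the list's median in 166 of 300 (55.3%), beside 41.8% of all pairs and 32.7% of the pairs as wide. In 165 (55%) both peaks had a -log10 q of at least 5, beside 66.4% of all pairs and 77.9% of the pairs as wide. Among pairs with that strength in both lists, 165 were narrower and 147 wider in KO by the limit of 1782 bp or more, and among the weaker pairs 135 and 129. The part of call strength in the narrowing was not tested.

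Pairs near the regions were narrower in KO about as often as all pairs. Within 100 kb of a region lay 1849 pairs that were not among the 300, of which 956 were narrower in KO (51.7%, 49.4 to 54.0), beside 52.2% of all pairs. Their median difference was 12.0 bp, as for all pairs. With the 28 members of the set that lay near another member, narrower by the choice, the share was 52.4% (984 of 1877). Of the 253 regions with at least 3 neighbouring pairs, most neighbours were narrower in KO at 119, most were wider or equal at 94, and at 40 they were split evenly. Called bases in the 100 kb on both sides, the region itself left out, were more numerous in f/f at 141 regions and in KO at 155, with medians of 10.9 kb in f/f and 10.8 kb in KO. Counted in that second way, neighbours of the 100 most narrowed regions were narrower in 55.6% (51.8 to 59.4) and those of the 200 most narrowed in 55.1%.

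Few of the regions lay close together. Of 286 loci formed by regions within 100 kb of each other, 272 held 1 region and 14 held 2. Chosen after their values were seen, pairs of regions lay near Zfp217, a repressor gene (6337 bp in f/f against 3621 bp in KO, then 3396 and 915 bp), inside Septin11 (3562 and 455 bp, then 2351 and 406 bp) and at Elovl6. The share of pairs taken into the set was highest on chromosome 6, at 27 of 1446 (1.87%, interval 1.29 to 2.70), beside 1.08% of all pairs. Chromosome 15 (1.69%, 1.09 to 2.59) and chromosome 5 (27 of 1821, 1.48%) came next. The interval does not allow for the choice of the highest of 19 chromosomes. Gata2, Etv6, Cdkn1b, Bid, Hoxa9 and Mitf lie on chromosome 6, where 12 pairs were wider in KO by the same limit. The share was lowest on chromosome 12, at 7 of 1196 (0.585%).

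Promoter sequence under the regions had fewer CG dinucleotides than that under all pairs. The 91 annotated starts under f/f peaks of the set had a median of 14.0 CG per 250 bases, beside 18.0 for the 9285 starts under any pair and 10.0 for all 20085 starts. A GATA match was found before 16.5% of starts of the set (15 of 91), 14.5% of starts under any pair and 23.4% of all starts. ETS matches were found before 9.89%, 16.5% and 9.21%, and RUNX matches before 5.49%, 10.3% and 12%. The E-boxes CACGTG (13.2%, 9.17% and 6.69%) and CAGCTG (13.2%, 10.5% and 12%), AP-1 (2.20%, 3.64% and 6.18%) and C/EBP (1.1%, 0.334% and 0.194%) were given by 1 to 12 starts of the set. Starts of 1 gene can share bases, and enhancer sequence was not used here.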

How the data were processed

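H3K27ac ChIP-seq peak lists of 1 Gata2 f/f and 1 Gata2 KO library were used. Per the submitters' processing notes, BWA, SAMtools and MACS2 were used with mm10; options, versions, the control library and depth: not given in the sources used here. The deposited lists carry, per peak, a position, a score (not used), a fold enrichment (a ratio) and, from MACS2, the p-value and q-value as -log10. These are the authors' values and were used only within a list.

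Pairs shared at least 1 bp, each peak having 1 partner, on chromosomes 1 to 19. Width is end minus start. Genes were 20665 protein-coding genes of GRCm38.p6 (RefSeq), and starts came from RefSeq promoter windows for 16457 of them. Starts on chromosome 18 were not used here. The pairing was tested on simulated lists (Python 3.11.15, pandas 2.3.3). Genes named are those of the 25 largest and 8 relatively largest narrowings, list members, pairs at the limit, and starts with the largest losses. Regions and lists were chosen with earlier results of these data known. No paired or replicate test exists, and Wilson intervals have a level of 95%.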

Additional observations from a re-analysis of the deposited data

Results flagged for a closer look

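The pairs were taken from chromosomes 1 to 19. Outside them, the KO list had 4 peaks on chromosome Y and the f/f list 0, in data that the comparison of widths did not use. These are called peaks and not read counts, the lists differ in size and their depth is not known, so that the difference describes these lists only. The sex of the animals is not given in the labels, and its part in any width was not tested.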

How the results depend on the processing

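No paired analysis was possible because each genotype has 1 library. Of the shares of pairs narrower in KO, of regions at gene ends and of neighbours narrower in KO, most alternatives stayed within the counting interval of the value given above. The gene-end share was 38.7% with peaks of a -log10 q of at least 5 and 16.7% when ranked by width ratio. The neighbour share, members of the set near another included, was 55.6% for the 100 and 55.1% for the 200 largest differences. Joining peaks within 500 bp altered nothing, since none lay so close. Chosen after seeing the data, joining KO peaks closer than the smallest f/f gap kept 298 of the 300 regions, with 302 pairs narrower and 345 wider by at least 1782 bp. Leaving out KO peaks narrower than the smallest f/f peak kept 283, with 51.4% of all pairs narrower. The causes were not tested. Unknown depth and single libraries limit every value.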

Other observations

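The pairing leaves out f/f peaks that met several KO peaks, and these were more numerous than the reverse. An f/f peak overlapped at least 2 KO peaks, none of which met another f/f peak, in 191 cases, and a KO peak overlapped at least 2 such f/f peaks in 73. The former had a median f/f width of 3790 bp, of which 1846 bp were under no KO peak. At least 1782 bp were uncovered in 101 of them, and in 67 of the KO peaks split in f/f. Smallest gaps between peaks differed between the lists (1697 bp in f/f against 1498 bp in KO), and their part in this was not tested.

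Among the split f/f peaks, chosen after their values were seen, the one with the most uncovered bases lay at Elane and Prtn3, which encode azurophil granule proteases (chromosome 10, 79873986 to 79887142). That peak was 13157 bp wide in f/f, and 4 KO peaks covered 7208 bp of it. The Ikaros family gene Ikzf2 had 12149 bp in f/f, of which 6864 bp lay under 4 KO peaks. The immediate early gene Ier2 had 9871 bp, of which 5141 bp lay under 2 KO peaks. A further f/f peak inside Erg, 5839 bp wide (chromosome 16, 95445236 to 95451074), was split into 2 KO peaks that covered 2455 bp, 3.37 kb from the narrowed Erg region.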
